A study of Sus scrofa with 9 samples.

Results

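The 10 genes described here, ATF4, CALR, CANX, DNAJC3, HSP90B1, MANF, PDIA3, PDIA4, PDIA6 and XBP1, encode chaperones, disulfide isomerases and stress regulators of the endoplasmic reticulum (ER). They were chosen by name from the 3890 genes with a symbol in the table, but with earlier results of these data known. Shares of the 10 genes set beside shares of all positions are therefore descriptive and no independent test. The transcript position with the longest annotated span stood for each gene. All 10 were listed, and all 10 reached the mean of 0.5 RPKM over the 9 libraries that was required for testing. GRO-seq lets RNA polymerases already engaged on the DNA of isolated nuclei extend their transcripts with a tagged nucleotide, so that values reflect ongoing transcription and not the amount of stored mRNA or protein. The animals were 3 female farm pigs, of a strain and age the labels do not state, with no genetic alteration named. The distal left anterior descending artery was closed with a coil. Healthy, border zone and ischemic myocardium was taken from the same hearts 24 hours later, so replicate numbers 1 to 3 were read as the pigs. The healthy samples thus also come from hearts with an occluded artery and are no sham controls. Tissue was digested with collagenase and nuclei were prepared before the run-on, with no sorting by cell type named.

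The ER folds proteins that enter the secretory pathway. Calnexin and calreticulin hold newly glycosylated proteins, the disulfide isomerases join and rearrange their cysteines, and when unfolded proteins accumulate the unfolded protein response raises transcription of such helpers through factors that include XBP1 and ATF4. In heart muscle the same compartment continues into the sarcoplasmic reticulum, which stores calcium, and interrupted blood flow is a known trigger of this response.

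Library totals were estimated from the RPKM values themselves. By these estimates healthy libraries held 2730083 to 6531658 reads and border zone libraries 2187977 to 7005976. Ischemic libraries held 883656 to 2134087 reads, and the median tested position had 16 to 46 reads there, against 45 to 94 in healthy and 40 to 134 in border zone libraries. Values are RPKM, reads per kilobase of annotated span, introns included, scaled to the library total. Fold changes were fitted with limma, a linear model over all positions, on log2(RPKM + 0.1), which understates changes of low genes, and p-values were adjusted over all positions tested. Of 11 heart muscle markers listed, all but CKM had reads in healthy libraries. CKM lies on an unplaced scaffold, and all 548 positions on such scaffolds were listed at 0 in every library, so these zeros give no level.

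All 10 genes had their lowest mean in healthy and their highest in ischemic myocardium, with border zone between, an order shared by 39.1% of the 2384 positions tested. Ischemic against healthy, 5 genes rose, namely CALR, ATF4, MANF, PDIA6 and HSP90B1, and 0 fell, at an adjusted p under 0.05 (limma). Over all positions 18.5% rose and 9.1% fell in that comparison. The median log2 fold change of the 10 genes was 1.03, against 0.21 for all positions tested. Of the 10 genes 7 had all ischemic values above all healthy values, as had 28.4% of positions, and 9 were higher in 3 of 3 pigs, as were 37.3% of positions. An unadjusted p under 0.05 with a higher ischemic value was reached by 8, against 27.1% of positions. In these bulk nuclei, fewer or more cells of a type and less or more transcription per cell cannot be told apart. The count of 5 fell to 3 without healthy replicate 2, healthy replicate 3, ischemic replicate 1 or ischemic replicate 3. Of all positions 9.56%, 11.7%, 10.8% and 12.5% rose in these fits, in place of 18.5%. CALR and MANF were among the genes called in each of these fits.

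In border zone against healthy myocardium 0 of the 10 genes passed (limma), with 5.79% of all positions higher, although 3 were higher at an unadjusted p under 0.05, as were 17.8% of all positions. CALR, DNAJC3 and MANF were these 3, and 4 genes, DNAJC3, MANF, PDIA4 and PDIA6, had all border zone values above all healthy ones, as had 25.7% of positions. limma-voom on whole reads called 1 gene of the 10, CALR (adjusted p = 0.0347), and 10.8% of all positions as higher. limma with pig as a block called CALR too, with 8.05% of all positions higher, so 1 of 10 is near the share of all positions in both. In ischemic against border zone 0 of the 10 passed (limma, with 0.168% of all positions higher, and 0 with limma-voom, with 1.13% higher). CALR, HSP90B1 and MANF were higher at an unadjusted p under 0.05, as were 6.42% of all positions. The ischemic values of ATF4, CALR, HSP90B1 and MANF all lay above their border zone values, as for 8.56% of positions. The median log2 fold change of the 10 genes was 0.47 in border zone against healthy (all positions 0.22) and 0.61 in ischemic against border zone (all positions -0.04).

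Part of this level moved with the scaling of the libraries. With libraries scaled to the same median, the median of all positions in ischemic against healthy went from 0.21 to 0.002 and that of the 10 genes to 0.81, with values from 0.25 to 1.76. Quantile normalization put the median of all positions at 0.02 and that of the 10 genes at 0.65, with values from 0.21 to 1.34. In border zone against healthy the median of the 10 genes went from 0.47 to 0.21 with the same median and to 0.19 with quantile normalization, and XBP1 and PDIA3 were below 0 under both.

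**Figure D1:**
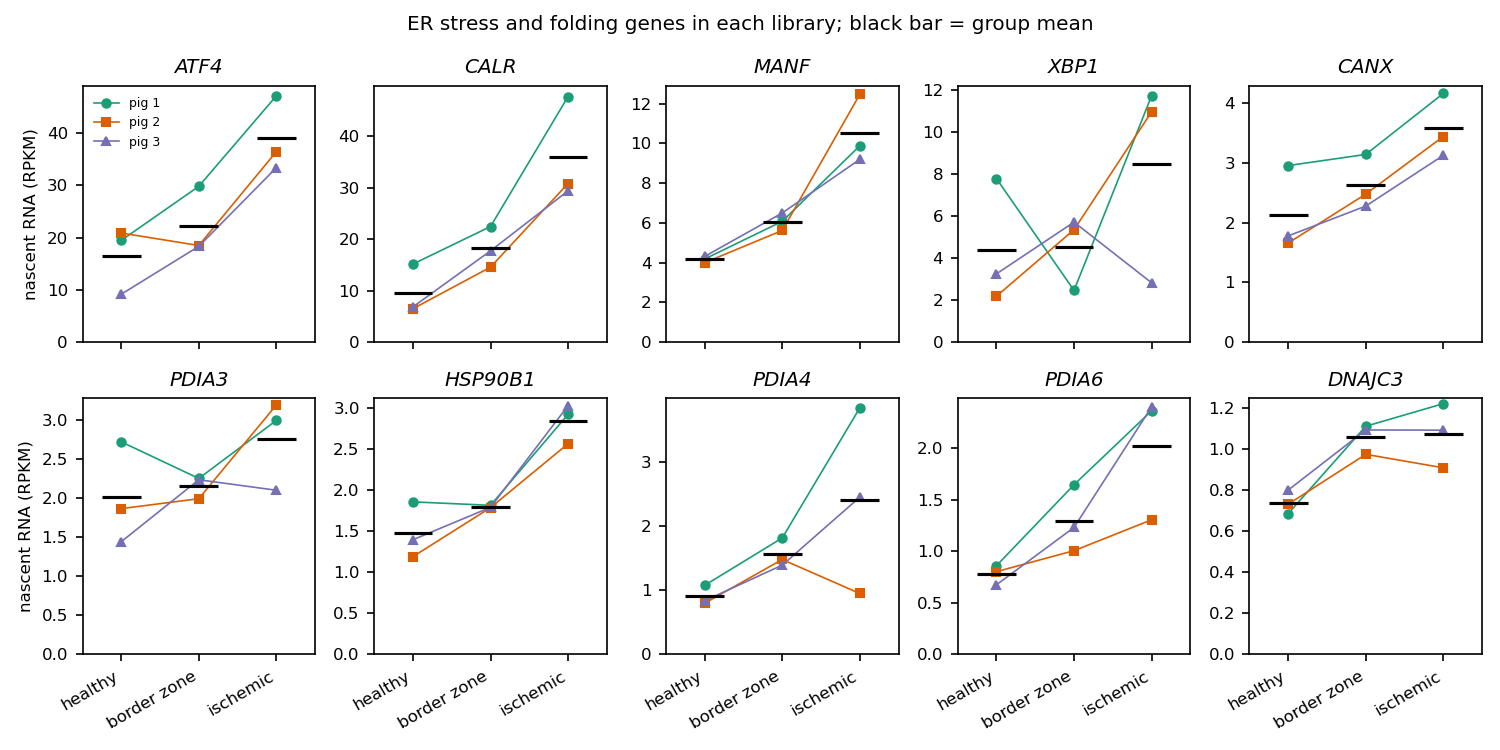
Nascent transcription of the 10 genes in RPKM (vertical axes, each from 0) in healthy, border zone and ischemic myocardium (horizontal axis). Coloured points joined by lines are the libraries of 1 pig and black bars are group means; CALR, MANF, HSP90B1, ATF4 and PDIA6 show all 3 ischemic values above all 3 healthy values, while the lines of XBP1 cross.

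The 2 lectin chaperones differed in whether they passed. CALR encodes calreticulin, a calcium-binding chaperone of the ER lumen (NM_001174133, chromosome 2 from 66283789 to 66287601 on susScr3, plus strand, 3812 bp with 1910 bp of exon). CALR measured 15.2, 6.51 and 6.87 RPKM in healthy replicates 1 to 3, 22.5, 14.6 and 17.7 in border zone and 47.7, 30.8 and 29.4 in ischemic replicates 1 to 3. Every ischemic value of CALR lay above every healthy and border zone value, and healthy and border zone overlapped because healthy replicate 1 exceeded border zone replicate 2. CALR rose 3.96-fold in ischemic against healthy myocardium (log2 fold change 1.98 ± 0.38, ± SE, adjusted p = 0.00847, limma), higher in 3 of 3 pigs. This was the largest log2 fold change of the 10 genes, and CALR passed in all 20 alternative fits. These include the position with the highest mean, which repeats the main fit and could not change the call. The same holds for later counts of alternative fits. In border zone the log2 fold change of CALR was 1.02 ± 0.38 (adjusted p = 0.178), and with pig as a block it passed (adjusted p = 0.0479, limma).

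CANX encodes calnexin, the membrane-bound relative of calreticulin (NM_001243210, chromosome 2 from 80445609 to 80482509, minus strand, 36900 bp). CANX had 2.96, 1.66 and 1.78 RPKM in healthy, 3.14, 2.48 and 2.28 in border zone and 4.17, 3.44 and 3.13 in ischemic replicates 1 to 3. All ischemic values of CANX exceeded all healthy values, yet healthy replicate 1 was close to ischemic replicate 3. The ischemic log2 fold change was 0.76 ± 0.27 (adjusted p = 0.0662, limma) and missed the threshold. With a term for pig, the block, CANX passed (adjusted p = 0.0242), as it did without healthy replicate 1 (0.027). The difference between the fold changes of CALR and CANX was not tested.

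Among the other chaperones and cochaperones, HSP90B1 encodes GRP94, the HSP90 of the ER lumen (NM_214103, chromosome 5 from 84016175 to 84083931, minus strand). Its listed span of 67756 bp holds 2450 bp of exon, 3.62% of the span, so introns make up most of the length over which its reads were counted. HSP90B1 had 1.85, 1.19 and 1.39 RPKM in healthy, 1.81, 1.78 and 1.79 in border zone and 2.92, 2.56 and 3.02 in ischemic replicates 1 to 3. Border zone libraries of HSP90B1 lay within 1.78 to 1.81 RPKM, inside the healthy range, and all 3 ischemic values stood above both groups. HSP90B1 rose 1.88-fold in ischemic myocardium (log2 fold change 0.91 ± 0.20, adjusted p = 0.0141, limma), a call lost without healthy replicate 2 (adjusted p = 0.0558).

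MANF encodes a small secreted protein of the ER lumen that is released under ER stress (NM_001244655, chromosome 13 from 36895330 to 36899269, minus strand, 3939 bp). MANF had 4.18, 4.001 and 4.31 RPKM in healthy, 6.08, 5.62 and 6.50 in border zone and 9.87, 12.5 and 9.19 in ischemic replicates 1 to 3. The 3 groups of MANF did not overlap, which held for none of the other 9 genes. MANF rose 2.47-fold in ischemic against healthy myocardium (log2 fold change 1.30 ± 0.20, adjusted p = 0.0033, limma), higher in 3 of 3 pigs and passed in all 20 alternative fits. Its border zone log2 fold change was 0.53 ± 0.20 (adjusted p = 0.187), with all 3 border zone values above all 3 healthy values. Ischemic against border zone gave 0.77 ± 0.20 (adjusted p = 0.122), the smallest adjusted p of the 10 genes in that comparison.

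DNAJC3 encodes p58IPK, a J-domain cochaperone that also restrains the stress kinase PERK (NM_001190184, chromosome 11 from 72092332 to 72161773, plus strand, 69441 bp). DNAJC3 had 0.686, 0.731 and 0.8003 RPKM in healthy, 1.11, 0.974 and 1.09 in border zone and 1.22, 0.909 and 1.09 in ischemic replicates 1 to 3. Both injured zones lay above healthy in every library, while border zone and ischemic values overlapped. The ischemic log2 fold change of DNAJC3 was 0.48 ± 0.19 (adjusted p = 0.101) and the border zone one 0.47 ± 0.19 (adjusted p = 0.213, limma), neither past the threshold. Ischemic against border zone it was 0.01, with a 95% interval from -0.43 to 0.46 on the log2 scale, and the sign turned in 3 alternative fits.

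**Figure D2:**
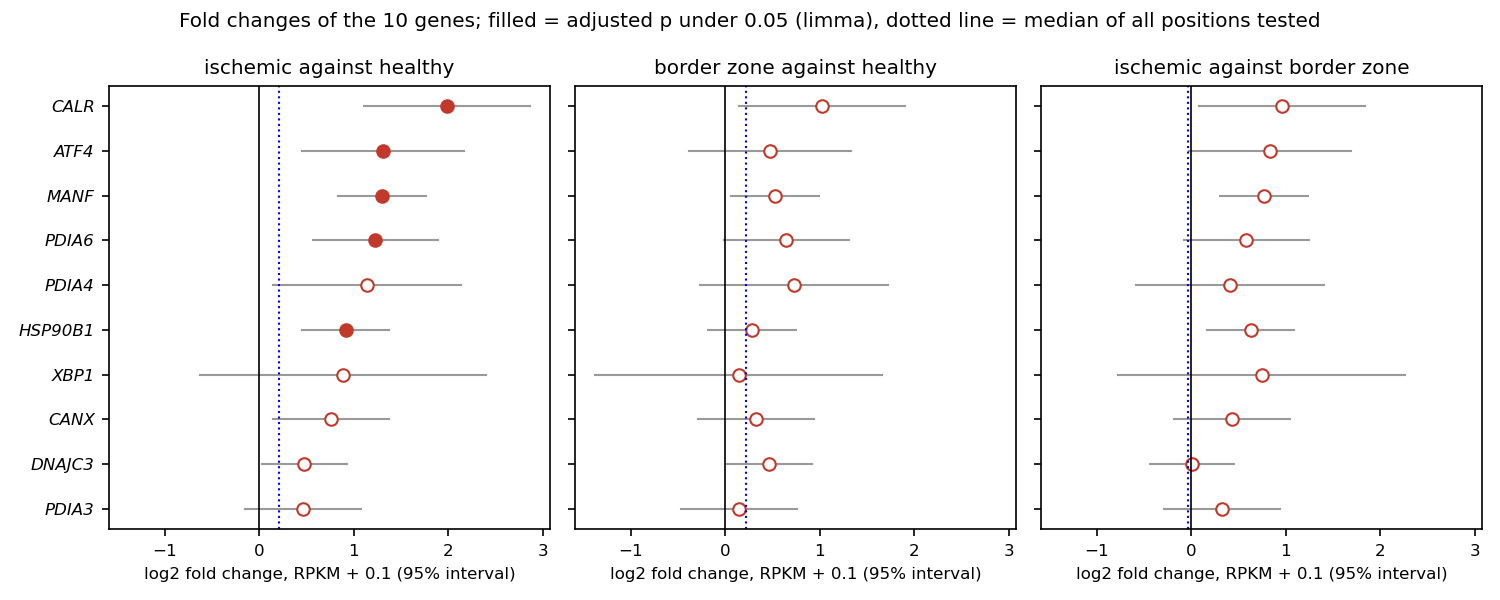
Log2 fold change of RPKM + 0.1 for each gene (horizontal axis) with its 95% interval from limma in 3 comparisons; filled points passed an adjusted p of 0.05 and the dotted line is the median of all positions tested. The 5 filled points, HSP90B1, PDIA6, MANF, ATF4 and CALR with 0.91 to 1.98, all belong to ischemic against healthy. PDIA4 lies among them as an open point, and the interval of XBP1 is the widest in each panel.

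The protein disulfide isomerases differed in how evenly their libraries moved. PDIA6 encodes the isomerase P5 (NM_001195119, chromosome 3 from 134582105 to 134599576, minus strand, 17471 bp). PDIA6 had 0.860, 0.802 and 0.675 RPKM in healthy, 1.64, 1.00 and 1.23 in border zone and 2.36, 1.30 and 2.40 in ischemic replicates 1 to 3. All border zone and all ischemic values were above all healthy ones, and ischemic replicate 2 fell within the border zone range. PDIA6 rose 2.34-fold in ischemic myocardium (log2 fold change 1.23 ± 0.29, adjusted p = 0.0169, limma), a call lost by a small margin without healthy replicate 2 (adjusted p = 0.0516), healthy replicate 3 (0.0568), ischemic replicate 1 (0.0528) or ischemic replicate 3 (0.0511).

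PDIA4 encodes ERp72 (NM_001267834, chromosome 9 from 120198256 to 120217661, plus strand, 19405 bp). PDIA4 had 1.08, 0.797 and 0.836 RPKM in healthy, 1.81, 1.48 and 1.39 in border zone and 3.84, 0.949 and 2.45 in ischemic replicates 1 to 3. Ischemic replicate 2 stood at the healthy level while the other ischemic libraries exceeded every other value. It rested on 21 reads, with an exact 95% counting interval of 0.587 to 1.45 RPKM that does not reach the interval of ischemic replicate 1, 3.27 to 4.49 RPKM from 159 reads. The ischemic log2 fold change of PDIA4 was 1.14 ± 0.43 (adjusted p = 0.0841, limma), and 1.67 without ischemic replicate 2, where it passed (adjusted p = 0.00435).

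PDIA3 encodes ERp57, the isomerase that works with calnexin and calreticulin (NM_001195112, chromosome 1 from 142615686 to 142643747, minus strand, 28061 bp). PDIA3 had 2.71, 1.86 and 1.44 RPKM in healthy, 2.25, 1.99 and 2.23 in border zone and 2.99, 3.19 and 2.10 in ischemic replicates 1 to 3. The 3 groups of PDIA3 overlapped. Its ischemic log2 fold change of 0.46 ± 0.27 was the smallest of the 10 genes (adjusted p = 0.231, limma), with a 95% interval from -0.15 to 1.08. The border zone value was 0.14 ± 0.27 (adjusted p = 0.818).

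**Figure D3:**
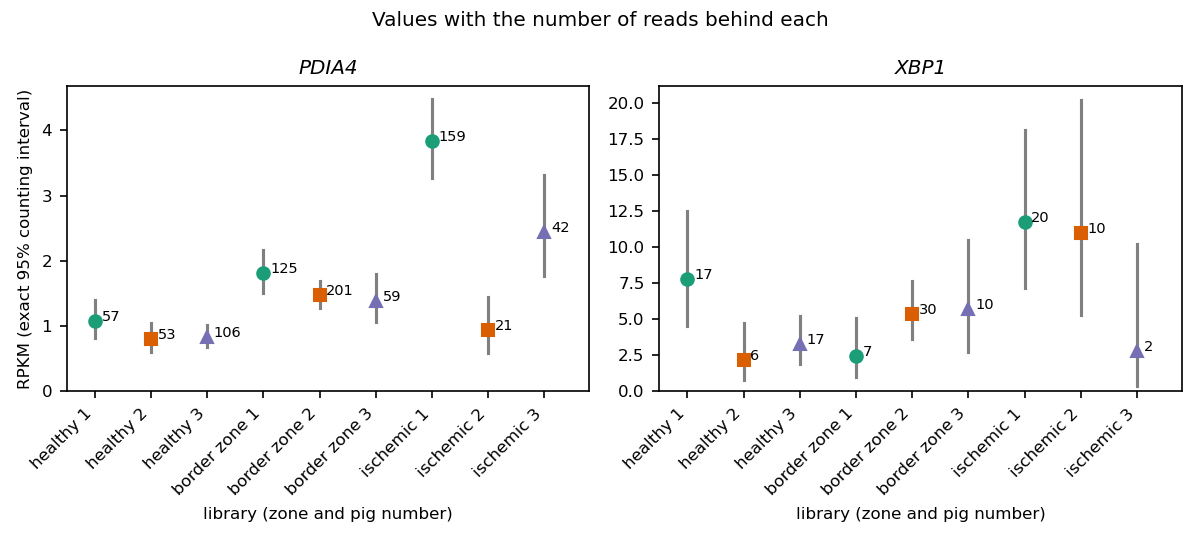
RPKM of PDIA4 and XBP1 in each of the 9 libraries (vertical axes from 0), with exact 95% counting intervals as bars and the number of reads beside each point. For PDIA4 ischemic replicate 2 (21 reads) sits at the healthy level, and for XBP1 the intervals are wide, down to 2 reads in ischemic replicate 3.

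The pair of transcription factors gave values of unequal precision. ATF4 encodes an activator of amino acid supply and stress genes that is governed largely at translation, a step which nascent RNA does not read (NM_001123078, chromosome 5 from 6042584 to 6044651, minus strand, 2067 bp). ATF4 had the highest mean of the 10 genes per kilobase, with 19.5, 20.9 and 9.18 RPKM in healthy, 29.8, 18.5 and 18.4 in border zone and 47.1, 36.5 and 33.4 in ischemic replicates 1 to 3. All ischemic values of ATF4 lay above all others, and healthy replicate 3 was far below the other healthy libraries. ATF4 rose 2.47-fold in ischemic against healthy myocardium (log2 fold change 1.31 ± 0.37, adjusted p = 0.0335, limma), higher in 3 of 3 pigs. The call was lost without healthy replicate 3 (adjusted p = 0.0824), without ischemic replicates 1, 2 or 3 (0.0986, 0.0548 and 0.06), in a fit of these 2 groups alone (0.0649), with libraries scaled to the same median (0.0508) and with quantile normalization (0.235).

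XBP1 encodes a factor whose mRNA is spliced in the cytoplasm by the ER sensor IRE1, again a step that nascent RNA does not read. The table lists XBP1 under a pair of accessions, NM_001142836 and NM_001271738, at 1 identical position of 799 bp that is exon throughout (chromosome 14 from 49015851 to 49016650, minus strand). That model has no intron, so the values may cover only part of the gene. XBP1 had 7.79, 2.19 and 3.26 RPKM in healthy, 2.47, 5.36 and 5.72 in border zone and 11.7, 11.0 and 2.83 in ischemic replicates 1 to 3. These rested on 119 reads over the 9 libraries, with 2 reads in ischemic replicate 3, whose exact 95% counting interval runs from 0.343 to 10.2 RPKM. The zones overlapped, and the ischemic log2 fold change of XBP1 was 0.89 ± 0.66 (adjusted p = 0.355, limma). Its 95% interval from -0.63 to 2.40 includes both a fall and a rise, so a difference was not detected. The parts of read depth and of spread between pigs in this interval were not tested.

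Per kilobase of span the genes kept a wide range. Mean RPKM over the 9 libraries was 25.9 for ATF4, 21.3 for CALR, 6.91 for MANF, 5.81 for XBP1, 2.78 for CANX, 2.31 for PDIA3, 2.04 for HSP90B1, 1.63 for PDIA4, 1.36 for PDIA6 and 0.958 for DNAJC3. The 4 highest have the 4 shortest spans, 799 to 3939 bp, and the others span 17471 to 69441 bp. Every pair of neighbours in this order overlapped in its range over the 9 libraries.

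Across libraries the averages of the 10 genes separated the ischemic samples from the rest. Relative to each gene's own mean, the average over the 10 was -0.14, -0.67 and -0.72 log2 units in healthy replicates 1 to 3, 0.07, -0.13 and -0.03 in border zone, and 0.84, 0.42 and 0.35 in ischemic replicates 1 to 3. Healthy replicate 1 was the highest healthy library and ischemic replicate 1 the highest ischemic one, and both come from pig 1. In healthy replicate 1 XBP1, PDIA3 and CANX were above their means. In ischemic replicate 1 all 10 genes were above their means, against 8 in each of the other ischemic libraries. Within pigs the median ischemic minus healthy difference of the 10 genes was 0.98, 0.90 and 1.07 log2 units in pigs 1 to 3, and the median border zone minus healthy difference 0.55, 0.51 and 0.63.

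**Figure D4:**
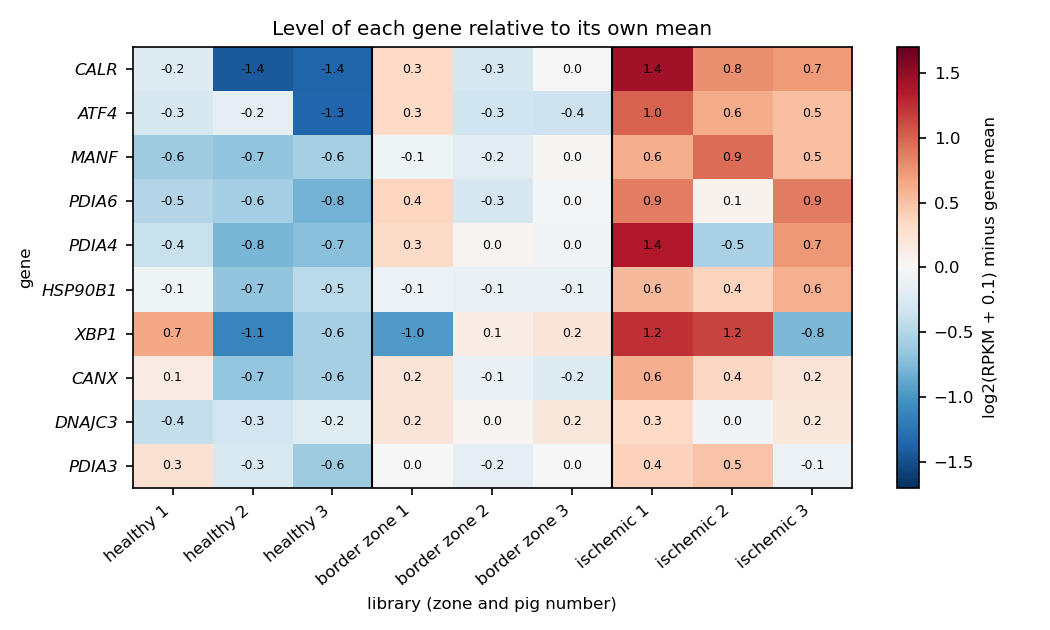
Log2(RPKM + 0.1) of each gene (rows) minus its mean over the 9 libraries (columns, by zone and pig), from blue (low) to red (high), with the value in each cell. The lowest ischemic cells are XBP1 in replicate 3 (-0.77) and PDIA4 in replicate 2 (-0.55), and XBP1 is low in border zone replicate 1 (-0.96).

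Other genes of the same pathways were followed in lists of 154 genes besides the 10, of which 45 were in the table and 36 were tested. Ischemic against healthy, 11 of the 36 rose and 1 fell (limma), where 18.5% of all positions rose and 9.1% fell, and their median log2 fold change was 0.63, against 0.21 for all positions. At an unadjusted p under 0.05 (limma) 16 of the 36 were higher, against 27.1% of all positions. There 2 were lower, and the share of all positions lower at that p was not counted. The count of 11 fell to 3 without healthy replicate 2, where 9.56% of all positions rose. It was 5 without healthy replicate 3 (all positions 11.7%) or ischemic replicate 1 (10.8%) and 7 without ischemic replicate 3 (12.5%). Without ischemic replicate 2 it was 14 (19.7%), and in a fit of the 2 groups alone 6 (12.9%). Quantile normalization gave 4 that rose (10.4%) and 3 that fell (251 of 2384 positions). In border zone against healthy 0 of the 36 passed (limma). There 6 were higher at an unadjusted p under 0.05 and 3 with limma-voom, shares no larger than the 17.8% and 10.8% of all positions. In ischemic against border zone 0 passed (limma), where 0.168% of all positions rose and 0.965% fell. At an unadjusted p under 0.05 (limma) 6 were higher in that comparison, against 6.42% of all positions. Another 2 were lower, again with no share of all positions counted. With limma-voom 1 was higher, against 1.13% of all positions. HSPA5, which encodes the chaperone BiP, and the sensors ERN1, ATF6 and EIF2AK3 were not analysed here. DDIT3, which encodes the stress factor CHOP, and HMOX1 lie on unplaced scaffolds, so their listed zeros give no level.

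Of 3 other regulators tested, ATF6B, a relative of the sensor ATF6, rose (0.84 ± 0.19, adjusted p = 0.0143, limma), from 1.47, 1.53 and 1.71 RPKM in healthy to 3.25, 2.71 and 2.75 in ischemic replicates 1 to 3. All its ischemic values were above all healthy and border zone values, and the call was lost without healthy replicate 2 (adjusted p = 0.0525) and with quantile normalization (0.0589). Of 4 other chaperones, SERPINH1, the collagen chaperone HSP47, rose (1.42 ± 0.29, adjusted p = 0.0108), from 2.14, 2.91 and 3.91 RPKM to 6.95, 8.14 and 8.88, with border zone at 4.18, 3.57 and 2.45. Border zone values of SERPINH1 overlapped the healthy ones, and its ischemic call held in all 20 alternative fits. Of 2 other oxidoreductases, ERO1A and ERP44, 0 passed (limma, 0 also at an unadjusted p under 0.05).

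In the list of translocation, signal peptide removal and N-glycan transfer 4 of 12 genes rose and 0 fell, against 18.5% and 9.1% of all positions, with a median log2 fold change of 0.66. RPN1 (1.20 ± 0.33, adjusted p = 0.0286), DDOST (1.17 ± 0.33, adjusted p = 0.0311) and STT3A (0.65 ± 0.21, adjusted p = 0.0492, limma) encode subunits of the oligosaccharyltransferase that attaches the glycan. PRKCSH, the beta subunit of the glucosidase that trims it for calnexin and calreticulin, had 0.97 ± 0.24 (adjusted p = 0.0199). The calls of RPN1 and DDOST were lost without healthy replicate 2, healthy replicate 3, ischemic replicate 1 or ischemic replicate 3 (adjusted p from 0.0741 to 0.103) and with quantile normalization, that of DDOST also in a fit of the 2 groups alone (0.0581), that of PRKCSH without healthy replicates 2 or 3 (0.0624 and 0.0568) and in that same fit (0.0527), and that of STT3A in 16 of 19 alternative fits, the one with pig as a block among them (0.0564).

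Of 10 genes of ER-associated degradation and ER export 3 rose and 0 fell, against 18.5% and 9.1% of all positions. Their median log2 fold change of 0.20 was at the 0.21 of all positions. SELENOS, a selenoprotein of the degradation machinery, rose (1.32 ± 0.28, adjusted p = 0.0124, limma), from 1.39, 1.36 and 0.676 RPKM to 2.84, 3.43 and 2.43, and passed in all 19 alternative fits that tested it. SEC24A, a coat protein of export vesicles, had 0.96 ± 0.24 (adjusted p = 0.0199), lost without healthy replicate 2 (0.0691) or ischemic replicate 1 (0.0582). KDELR3, a receptor that returns luminal chaperones, had 1.32 ± 0.42 (adjusted p = 0.0499), lost in 15 of 19 alternative fits. DERL1 went the other way but did not pass (-0.59 ± 0.21, adjusted p = 0.074, limma). Its ischemic values all lay below its healthy and border zone values.

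Of 5 tested genes known as ATF4 targets 2 rose and 1 fell, against 18.5% and 9.1% of all positions. SLC7A1, an amino acid transporter, did not pass (adjusted p = 0.0603, limma) but did with pig as a block (0.0490). DDIT4, an inhibitor of the growth kinase mTORC1 that hypoxia also induces, rose (1.75 ± 0.40, adjusted p = 0.0152, limma), from 15.1, 24.1 and 17.3 RPKM in healthy to 54.1, 46.4 and 97.2 in ischemic replicates 1 to 3, a call lost with quantile normalization (0.0768). The value of VEGFA, which drives vessel growth, was 0.90 ± 0.27 (adjusted p = 0.039), lost in 12 of 20 alternative fits. VLDLR, a lipoprotein receptor, fell (-1.22 ± 0.27, adjusted p = 0.0149), from 2.20, 1.43 and 2.03 RPKM to 0.712, 0.878 and 0.659, a call lost without healthy replicate 3 (0.0505). STC2 was also lower, higher in 0 of 3 pigs, but did not pass (-1.03 ± 0.69, adjusted p = 0.299, limma). CEBPB, a factor listed with the regulators, had 5.28, 5.89 and 4.27 RPKM in healthy, 26.8, 12.8 and 22.4 in border zone and 25.7, 5.90 and 35.9 in ischemic replicates 1 to 3, and did not pass (log2 fold change 1.77 ± 0.63, adjusted p = 0.0676).

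**Figure D5:**
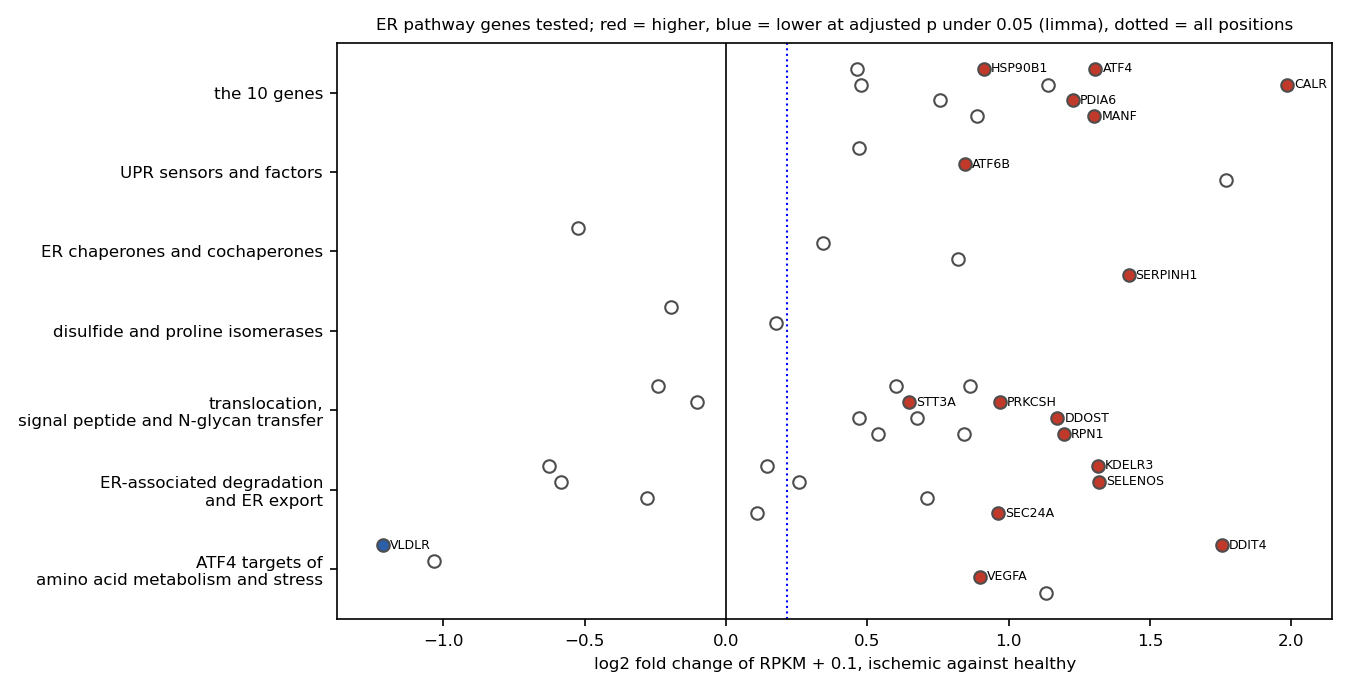
Log2 fold change of RPKM + 0.1 in ischemic against healthy myocardium (horizontal axis) for the 10 genes and 36 other ER pathway genes, by list (rows; height within a row has no meaning). Red points rose and blue points fell at an adjusted p under 0.05 (limma), open points did not pass, and the dotted line is the median of all positions (0.21); 16 points are red and 1, VLDLR, is blue.

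The 5 tested genes outside all lists whose profile over the 9 libraries was nearest to the average of the 10 were RBM25, GGTA1P, RPL6, RPS10 and NUCB1. The root mean square difference of centred log2 values was 0.14 for RBM25, a splicing factor gene, 0.15 for GGTA1P, 0.17 for RPL6 and 0.18 for RPS10, both ribosomal protein genes, and 0.18 for NUCB1, which encodes a calcium-binding protein of the Golgi. The median of all 1909 such genes was 0.64. Among the 10 themselves the difference ran from 0.16 for CANX and 0.17 for HSP90B1 to 0.44 for CALR and 0.67 for XBP1. Each of the 10 is itself part of that average, which lowers its difference, unlike the genes outside the lists.

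Cell type markers differed between the zones along with these genes. Summed over 11 listed heart muscle genes, RPKM ran from 373.4 to 637.8 in healthy, from 181 to 308 in border zone and from 70.01 to 254 in ischemic libraries, and 7 of 10 tested fell in ischemic against healthy myocardium (limma), against 9.1% of all positions. The sum of 10 macrophage genes ran from 2.24 to 3.58 in healthy, from 13.8 to 20.5 in border zone and from 25.7 to 30.3 in ischemic libraries, with CD163 on an unplaced scaffold. Of 6 tested, 4 rose and 0 fell in ischemic against healthy myocardium (limma), against 18.5% and 9.1% of all positions. C1QA had 0.647, 0.928 and 0.487 RPKM in healthy and 1.16, 0.31 and 0 in ischemic replicates 1 to 3. C1QC had 0.774, 0.37 and 0.615 in healthy and 0.594, 0.555 and 0 in ischemic replicates 1 to 3. For 6 neutrophil genes the sum was 0.174 to 0.517, 5.89 to 11.9 and 14.4 to 32.1, with S100A8, S100A9 and S100A12 at 0 in all healthy libraries and FCGR3A on an unplaced scaffold. For 6 fibroblast genes it was 8.85 to 11.98, 12.4 to 15.3 and 16.5 to 20.3. Of these 6, VCAN, COL1A2 and COL3A1 rose in ischemic against healthy myocardium (limma), against 18.5% of all positions. POSTN did not pass, and DCN and LUM, with log2 fold changes of -0.57 and -0.63, did not pass either. For 3 endothelial genes the sum was 4.61 to 5.67, 5.46 to 7.57 and 8.28 to 11.7. The part of these cell types in the values of the 10 genes was not tested.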

How the data were processed

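GRO-seq of 9 libraries (3 zones from each of 3 pigs) was deposited by the authors as RPKM, reads per kilobase of annotated span scaled to the library total, for 4882 RefSeq positions on susScr3. Bowtie is named in the submitters' processing notes, with no version; counting settings are not given in the sources used. Library totals were estimated from the same RPKM values, as the totals that turn RPKM times span into whole reads. With these totals 100% of values were whole within 0.01 reads, which the estimate aimed for. Reads and exact 95% intervals rest on these totals, and the intervals cover counting error only.

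Accessions were matched to symbols with the RefSeq table (4793 positions). The 2384 positions that averaged 0.5 RPKM or more were fitted on log2(RPKM + 0.1) with limma 3.58.1 (R 4.3.3, trend and robust, all 3 zones, no block), 2-sided, with Benjamini-Hochberg adjustment over all positions within a comparison and a threshold of 0.05; the added 0.1 lessens fold changes of low genes. The code was tested on simulated data. Named genes were the 10 members, the pathway genes that passed in ischemic against healthy myocardium, and the 5 nearest genes by profile. CEBPB, SLC7A1, STC2, DERL1, ERO1A, ERP44, C1QA, C1QC and the fibroblast markers were chosen after their values were seen. The members and lists were chosen with earlier results of these data known. The lymphocyte and plasma cell marker list is not reported here.

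Samples with the same replicate number in their titles were taken to come from the same pig. Their deviations from the zone means correlated at 0.07, 0.07 and 0 between ischemic and healthy, 0.12, -0.04 and 0.04 between border zone and healthy, and 0.14, 0.18 and 0.13 between ischemic and border zone. Alternatives changed the pseudocount, filter, scaling, block, model and libraries. The alternative named for the position with the highest mean reused the main fit, so it is no separate check of the named genes. The fit with limma-voom on recovered reads was added after seeing the data.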

Additional observations from a re-analysis of the deposited data

How the results depend on the processing

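With pig as a replicate block, 6 of the 10 genes rose in ischemic against healthy myocardium in place of 5 and CALR was the 1 called in border zone against healthy in place of 0; apart from CANX and CALR the paired fit changed no call of the 10 genes, and of the other genes named it ended the call of STT3A (adjusted p = 0.0564, limma) and added SLC7A1 (0.0490) and RPS10 (0.0275). limma-voom on recovered reads gave 7 and 1. Of all positions 21.3% rose in ischemic against healthy with the block and 22.3% with limma-voom. Leaving out 1 library gave 3 to 6 in ischemic against healthy, with 9.56% to 19.7% of all positions higher. Directions turned only for values that had not passed. For border zone against healthy, PDIA3 had a log2 fold change of -0.12 with libraries scaled to the same median, -0.058 with quantile normalization and -0.061 to 0.37 over the fits that left out 1 library (below 0 without healthy replicate 3). XBP1 had -0.13 and -0.078 with these scalings and -0.25 to 0.64 over the left-out libraries (below 0 without healthy replicate 2, border zone replicate 2 or 3). For ischemic against border zone, DNAJC3 had -0.078 to 0.12 (below 0 without border zone replicate 2, ischemic replicate 1 or 3) and PDIA4 -0.014 to 0.94 (below 0 without ischemic replicate 1). The cause was not tested.

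Over all positions 442 rose and 217 fell in ischemic against healthy, 337 and 297 with libraries scaled to the same median, and 249 and 251 with quantile normalization. A filter at 2 RPKM tested 859 positions in place of 2384 and called 346 in place of 659 (27.9% higher in place of 18.5%), and leaving out healthy replicate 2 or 3 called 357 or 412. In border zone against healthy 138 rose and 5 fell, 77 and 13 with the same median and 74 and 11 with quantile normalization; a pseudocount of 1 called 48 in place of 143, no filter 95, a filter at 2 RPKM 76 and limma-voom 296. Leaving out 1 library called 35 to 174, the lowest without border zone replicate 1. In ischemic against border zone 27 were called, 10 with a pseudocount of 1, 3 with no filter, 8 and 5 with the scalings, 1 in a fit of 2 groups and 92 with limma-voom; leaving out 1 library called 0 to 39, with 0 without healthy replicate 3 or border zone replicate 3. The planned edgeR test on whole reads was not run, and limma-voom on those reads was run in its place. XBP1 had the fewest reads of the 10 genes, and the part of depth in its wide intervals was not tested.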
